A study of Homo sapiens with 6 samples.

Results

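The Hippo pathway genes YAP1, WWTR1, TEAD1, TEAD4, LATS1, LATS2, ANKRD1, AMOTL2, AJUBA and F3 were examined in EJ, an established line of human bladder cancer cells. They were chosen by name, with earlier results of these data known, and all 10 were among the 15953 genes measured. RNA-seq was run on 6 libraries, 3 of cells carrying a stable control hairpin (shNC) and 3 of cells with stable short hairpin knockdown of STIL (shSTIL), both delivered by lentivirus. STIL encodes a centriole duplication protein. The hairpin sequence, the number of clones and the time after infection were not given in the sources used here, the headings inside the deposited tables use siRNA names for the same groups, and nothing states that the 3 libraries of a group came from separate cultures. P-values therefore measure only the spread between these libraries.

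In the Hippo pathway, the kinases MST1 and MST2 with the adaptor SAV1 activate LATS1 and LATS2 together with MOB1. The LATS kinases phosphorylate the coactivators YAP (from YAP1) and TAZ (from WWTR1), which holds them in the cytoplasm or marks them for degradation. In the nucleus YAP and TAZ bind TEAD transcription factors (TEAD1 to TEAD4) and drive targets such as CCN1, CCN2, ANKRD1, AMOTL2, LATS2 and F3. The junction proteins AMOTL2 and AJUBA act on this chain, AMOTL2 by binding YAP and AJUBA by binding LATS kinases. YAP and TAZ are controlled largely at the protein level, and only RNA was measured here.

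TEAD factors bind the sequence GGAATG, which reads CATTCC on the other strand. RefSeq windows (GRCh38.p14, 250 bases before to 50 bases after a transcription start) were found for 8 of the 10 genes, all but TEAD1 and TEAD4. Both readings were searched, and no match overlapped another. At least 1 match lay in a window of YAP1, LATS2, ANKRD1, AMOTL2 and AJUBA, and none in those of WWTR1, LATS1 and F3. By window, 5 of 12 held a match, beside 4928 of 35116 windows of all genes (14.0%). The stretches that hold the matches are shown because they are where this word lies in the genes whose RNA is described here. Each is 30 bases on the strand of its gene, with the match in capitals:
YAP1 chr11:102110273-102110302, plus strand: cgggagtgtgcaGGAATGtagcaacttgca
LATS2 chr13:21061560-21061589, minus strand: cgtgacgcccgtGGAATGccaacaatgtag
ANKRD1 chr10:90921290-90921319, minus strand: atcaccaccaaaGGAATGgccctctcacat
ANKRD1 chr10:90921198-90921227, minus strand: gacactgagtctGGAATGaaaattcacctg
AMOTL2 chr3:134374499-134374528, minus strand: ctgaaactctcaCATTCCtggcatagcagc
AJUBA chr14:22976884-22976913, minus strand: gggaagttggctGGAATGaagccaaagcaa

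Measured from the RefSeq start, the match of YAP1 lay 162 bases before it, those of ANKRD1 220 and 128 bases before it, and that of LATS2 10 bases after it. AMOTL2 and AJUBA each had 2 windows, and the first, which spans the annotated gene start, held 0 matches in both genes. Their matches lay 69 and 59 bases before the start of the second window, which lies inside the gene. CCN1 and CCN2, widely used YAP targets that are described with the targets below, were also looked up, and no window was found for CCN1. The window of CCN2 held 3 matches at 169, 104 and 95 bases before the start. Windows with 3 or more matches were 44 of 35116 (0.125%). The bases of the CCN2 window that lie before the gene's annotated start are shown for that reason, again with the matches in capitals:
CCN2 chr6:131951374-131951622, minus strand: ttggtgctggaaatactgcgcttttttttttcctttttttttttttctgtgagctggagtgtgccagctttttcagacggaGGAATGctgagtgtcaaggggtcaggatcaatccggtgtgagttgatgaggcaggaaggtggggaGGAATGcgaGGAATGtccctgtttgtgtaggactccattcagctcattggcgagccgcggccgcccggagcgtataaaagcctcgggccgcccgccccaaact
A match is a description of these letters and not a binding site, and no binding of a TEAD factor was measured in these cells.

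The libraries held 16214772 to 16901634 reads, recovered from the spacing of the deposited log2 CPM values. Log2 CPM is reads scaled to library size, with edgeR normalization factors between libraries, on a log2 scale. STIL had a log2 CPM of 5.98, 6.10 and 6.01 in shNC and 4.05, 4.06 and 4.01 in shSTIL libraries, which left 25.2% of the control level. Differentially expressed genes (DEGs) were those with a Benjamini-Hochberg adjusted p under 0.01 in limma, and these were 47.1% of all genes, 23.5% higher and 23.6% lower in shSTIL. The share was 61.9% of the 11319 genes whose mean log2 CPM reached 1. The groups stood apart without overlap in 60.3% of all genes. The median log2 fold change of all genes was 0.0052, so a change of a member below is also a change against the bulk of genes. Of 14 epithelial and urothelial markers, 12 were measured. Of these, 2 were higher (KRT7, log2 fold change 0.49, and PPARG, 0.26) and 2 lower (KRT8, -0.70, and UPK1B, -1.12). UPK1B had only 5 to 20 reads per library. The summed CPM of the 12 was 1094 to 1154 in shNC and 992 to 1024 in shSTIL. KRT5, KRT20, UPK2 and CDH1 had 0 to 5 reads per library, so these urothelial and epithelial markers were at or near 0 in this line. GATA3 had 4 to 9 reads, EPCAM 15 to 21 and UPK1A 19 to 33. PPARG had 302 to 405 reads per library, and KRT7, KRT8 and KRT18 had more. Of 8 mesenchymal markers, 1 was higher (ZEB2, log2 fold change 0.74) and 3 were lower (VIM -0.68, FN1 -1.19 and COL1A1 -0.96). COL1A1 had only 21 to 59 reads per library. The summed CPM of the 8 was 1577 to 1619 in shNC and 992 to 1010 in shSTIL, and most of it was VIM. Of 7 leukocyte and endothelial markers, 4 were measured. In limma 0 of them were DEGs at the adjusted threshold and 2 (CD68 and PECAM1) had an unadjusted p under 0.05, while edgeR called 0 of the 1 it tested and DESeq2 0 of 3 (1 in each with an unadjusted p under 0.05). Their summed CPM was 11.6 to 12.7 in shNC and 13.3 to 15.4 in shSTIL. Most of that sum was CD68, with 173 to 250 reads per library, while PECAM1 had 1 to 7, CDH5 5 to 11 and VWF 0 to 2. The part of these shifts in the results below was not tested. In such bulk libraries, fewer cells that use a gene and less of its RNA per cell cannot be told apart.

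Of the 10 genes, 7 (70%) were DEGs, and 4 without shSTIL replicate 3. TEAD1, TEAD4, LATS1, ANKRD1, AMOTL2 and AJUBA rose in shSTIL cells, and WWTR1 fell. YAP1, LATS2 and F3 did not pass the test. The values of shNC and shSTIL libraries did not overlap for the 7 DEGs, beside 60.3% of all genes, and overlapped for the other 3. The share called stood beside 47.1% of all genes and 61.9% of those whose mean log2 CPM reached 1, as it did for 9 of the 10 members. The median log2 fold change of the 10 genes was 0.24, and apart from ANKRD1 no member changed by more than 1.44-fold. Replicate error was small for most of them, with a median SD of 0.063 log2 units in shNC and 0.034 in shSTIL libraries.

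**Figure D1:**
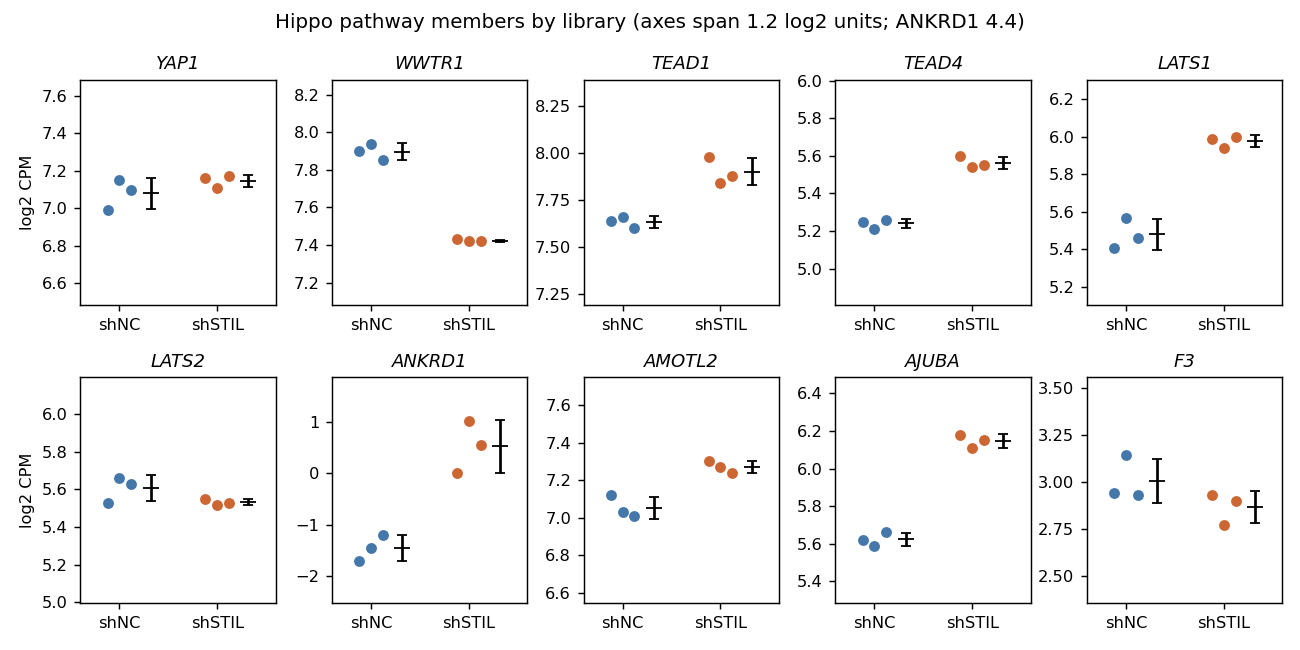
The log2 CPM of each of the 10 genes is plotted for the 3 shNC (blue) and 3 shSTIL (orange) libraries, with the mean and SD of each group as a black bar; each panel spans the same number of log2 units except that of ANKRD1, which is wider. WWTR1 sits lower in shSTIL in every library, TEAD1, TEAD4, LATS1, ANKRD1, AMOTL2 and AJUBA sit higher, and the groups overlap for YAP1, LATS2 and F3.

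Of the coactivator genes, WWTR1 fell and YAP1 did not pass the test. YAP1 (chromosome 11, 102110461 to 102233423, plus strand) had a log2 CPM of 6.99, 7.15 and 7.10 in shNC and 7.16, 7.11 and 7.17 in shSTIL libraries. The groups overlapped, and the shNC libraries were spread more widely than the shSTIL libraries. The fitted difference was 0.07 log2 units (standard error 0.041, 95% interval -0.02 to 0.16, limma adjusted p = 0.193). WWTR1 (chromosome 3, 149517235 to 149736714, minus strand), which encodes the paralog TAZ, had a log2 CPM of 7.90, 7.94 and 7.85 in shNC and 7.43, 7.42 and 7.42 in shSTIL libraries. Every shSTIL library lay below every shNC library, and the 3 shSTIL values were nearly the same. WWTR1 fell by 0.48 on the log2 scale (standard error 0.032 and limma adjusted p = 3.0e-08), to 71.8% of the control level, and the two-sided exact permutation p was 0.1, which is as small as 3 libraries a group can give. WWTR1 was the only member that fell and passed the test.

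Whether both genes of a related pair moved alike was tested on their log2 ratio in each library, for 5 pairs. Only the change of a ratio between groups is read, since the ratio itself is not corrected for transcript length. The log2 ratio of YAP1 over WWTR1 was -0.91, -0.80 and -0.76 in shNC and -0.27, -0.31 and -0.25 in shSTIL libraries. The groups stood apart, and the ratio was higher by 0.55 in shSTIL (exact permutation p = 0.1, 0.125 adjusted over the 5 pairs). With these sample numbers the test cannot pass 0.05 for any pair.

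**Figure D2:**
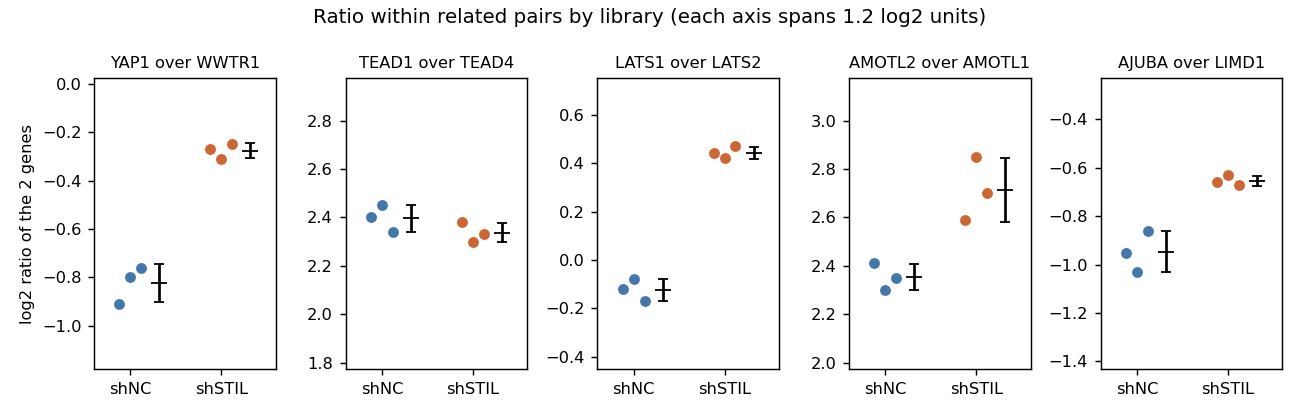
The log2 ratio of 2 related genes is plotted for each of the 3 shNC (blue) and 3 shSTIL (orange) libraries, with the mean and SD as a black bar, and each panel spans the same number of log2 units. The ratio rises in shSTIL without overlap for YAP1 over WWTR1, LATS1 over LATS2, AMOTL2 over AMOTL1 and AJUBA over LIMD1, and overlaps for TEAD1 over TEAD4.

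TEAD1 and TEAD4, DNA-binding partners of YAP and TAZ, both rose. TEAD1 (chromosome 11, 12674591 to 12944483, plus strand) had a log2 CPM of 7.64, 7.66 and 7.60 in shNC and 7.98, 7.84 and 7.88 in shSTIL libraries. The lowest shSTIL library was still above the highest shNC library. The rise was 0.27 log2 units (standard error 0.038 and limma adjusted p = 4.5e-05), or 1.2-fold. TEAD4 (chromosome 12, 2959330 to 3040673, plus strand) had a log2 CPM of 5.25, 5.21 and 5.26 in shNC and 5.60, 5.54 and 5.55 in shSTIL libraries. Again no library of one group reached the other. TEAD4 rose by 0.32 log2 units (standard error 0.045 and limma adjusted p = 3.1e-05), or 1.25-fold. The log2 ratio of TEAD1 over TEAD4 changed by -0.06 (exact permutation p = 0.2) and its groups overlapped. TEAD1 lost its call when shNC replicate 3 or shSTIL replicate 3 was left out (limma adjusted p = 0.0103 and 0.0115).

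Of the other TEAD genes, TEAD2 fell from 5.20, 5.10 and 5.10 to 4.34, 4.21 and 4.31 log2 CPM, or by -0.84 on the log2 scale (limma adjusted p = 5.8e-08). TEAD3 had a log2 fold change of -0.16 and was not a DEG (limma adjusted p = 0.0176), although its groups did not overlap. VGLL3, a cofactor that competes with YAP and TAZ for TEAD proteins, rose by 1.88 on the log2 scale (limma adjusted p = 6.1e-07) from a low level of 17 to 21 reads per library in shNC to 77 to 81 in shSTIL. Among 10 coactivator, TEAD and VGLL genes, 8 were measured, of which 3 were higher (TEAD1, TEAD4 and VGLL3), 2 lower (WWTR1 and TEAD2) and 3 not called. The share called, 62.5%, was near the 61.9% of all genes whose mean log2 CPM reached 1, as it did for all 8. No share was computed for genes matched to these in level. Their median log2 fold change was 0.11.

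Of the LATS kinases, which inhibit YAP and TAZ, LATS1 rose and LATS2 did not pass the test. LATS1 (chromosome 6, 149658153 to 149718256, minus strand) had a log2 CPM of 5.41, 5.57 and 5.46 in shNC and 5.99, 5.94 and 6.0 in shSTIL libraries. All shSTIL libraries were above all shNC libraries. The rise was 0.49 log2 units (standard error 0.049 and limma adjusted p = 1.3e-06), or 1.41-fold. LATS2 (chromosome 13, 20973032 to 21061547, minus strand), which is also a YAP target gene, had a log2 CPM of 5.53, 5.66 and 5.63 in shNC and 5.55, 5.52 and 5.53 in shSTIL libraries. These ranges overlapped at shNC replicate 1. The fitted log2 fold change was -0.07 (standard error 0.046, 95% interval -0.17 to 0.03, limma adjusted p = 0.202). The log2 ratio of LATS1 over LATS2 was -0.12, -0.08 and -0.17 in shNC and 0.44, 0.42 and 0.47 in shSTIL libraries. The groups stood apart, with a mean change of 0.57 (exact permutation p = 0.1, 0.125 adjusted over the 5 pairs).

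Around the LATS genes, the core kinase module of 7 genes had 4 higher members, 1 lower and 2 not called, with a median log2 fold change of 0.21. The share called was 71.4%, beside 61.9% of all genes whose mean log2 CPM reached 1, as it did for all 7. Besides LATS1, the higher genes were SAV1, the scaffold of the MST kinases (0.34, limma adjusted p = 4.5e-05), and the MST kinase genes STK3 (0.30, adjusted p = 0.0038) and STK4 (0.18, adjusted p = 0.0015). MOB1A, a LATS coactivator, was lower by 0.14 on the log2 scale (log2 fold change -0.14, limma adjusted p = 0.0071). The calls of STK3, STK4 and MOB1A are the weak ones of this module, since each was lost in at least 5 of the 6 fits that left out a library, whereas SAV1 and LATS1 kept theirs in all 6.

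AMOTL2 and AJUBA, junction-associated regulators of the pathway, both rose. AMOTL2 (chromosome 3, 134355874 to 134375479, minus strand), a YAP-binding angiomotin that is also a YAP target, had a log2 CPM of 7.12, 7.03 and 7.01 in shNC and 7.30, 7.27 and 7.24 in shSTIL libraries. The groups did not overlap, but shNC replicate 1 lay only 0.12 below shSTIL replicate 3. AMOTL2 rose by 0.22 log2 units (standard error 0.037 and limma adjusted p = 1.8e-04), or 1.16-fold. This was the smallest called change among the members, and it lost its call in 5 of the 6 fits without a library, all but that without shNC replicate 1, with adjusted p up to 0.0150. Its paralogs did not rise: AMOT fell from 4.73, 4.77 and 4.70 to 3.83, 3.62 and 3.86 log2 CPM (log2 fold change -0.96, limma adjusted p = 1.5e-07), and AMOTL1 was not called (-0.14, adjusted p = 0.114). The log2 ratio of AMOTL2 over AMOTL1 was 2.35 on average in shNC and 2.72 in shSTIL, without overlap (exact permutation p = 0.1).

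AJUBA (chromosome 14, 22971174 to 22982642, minus strand), a LIM-domain protein that binds LATS kinases at junctions, had a log2 CPM of 5.62, 5.59 and 5.66 in shNC and 6.18, 6.11 and 6.15 in shSTIL libraries. The groups were far apart relative to a spread of 0.04 within each. AJUBA rose by 0.53 log2 units (standard error 0.041 and limma adjusted p = 1.4e-07), or 1.44-fold, the largest of the members at or above a mean log2 CPM of 1. Both paralogs rose too, LIMD1 by 0.23 (limma adjusted p = 2.2e-04) and WTIP by 0.83 (adjusted p = 7.5e-08), so all 3 genes of the AJUBA family rose. The log2 ratio of AJUBA over LIMD1 went from -0.95 to -0.65 on average without overlap (exact permutation p = 0.1, 0.125 adjusted over the 5 pairs). LIMD1 lost its call in 4 of the 6 fits without a library. The genes whose profile over the 6 libraries was most like that of AJUBA were TBC1D15, IGF2BP2 and C1orf43, at root mean square distances of 0.012, 0.016 and 0.016 log2 units between centred values.

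Of the 31 upstream regulators of the pathway, which include AMOTL2 and AJUBA, 20 were higher, 3 lower and 8 not called, with a median log2 fold change of 0.35. The share called was 74.2%, beside 61.9% of all genes whose mean log2 CPM reached 1, as it did for 29 of the 31. FRMD6, a junction protein that acts beside the tumour suppressor NF2, rose by 0.98 (limma adjusted p = 7.6e-10). DCHS1, a protocadherin of the FAT branch, rose by 0.94 from 36 to 42 reads per library in shNC to 82 to 83 in shSTIL. The KIBRA-family gene WWC2 rose by 0.93 (adjusted p = 5.9e-10), and RASSF1, which binds MST kinases, by 0.90 (adjusted p = 1.8e-06). The lower genes were AMOT, NF2 (-0.51) and the kinase gene TAOK2 (-0.30), and WWC3, with the largest value of the list (2.29), had only 2 to 28 reads per library. NF2, TAOK2 and WWC3 fall outside the naming rule and were added after their values were seen.

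Taking the kinase module, the upstream regulators and the coactivator and TEAD genes as 1 list, 46 of 48 genes were measured, and 27 were higher, 6 lower and 13 not called. Their median log2 fold change was 0.22, beside 0.0052 for all genes, and 71.7% of them were DEGs beside 61.9% of all genes at or above a mean log2 CPM of 1. Since the lists were chosen with earlier results of these data known, these shares and medians are descriptions, and no set test was run.

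ANKRD1 (chromosome 10, 90912096 to 90921276, minus strand), a muscle ankyrin repeat protein gene used as a YAP readout, was close to silent in shNC cells. It had 3, 4 and 5 reads in the shNC libraries and 15, 33 and 23 in the shSTIL libraries. Its log2 CPM was -1.70, -1.45 and -1.20 in shNC and 0.00, 1.03 and 0.56 in shSTIL, so the groups did not overlap but the shSTIL libraries varied widely. ANKRD1 rose by 1.98 log2 units (standard error 0.287 and limma adjusted p = 4.9e-05). Summed over libraries and scaled by depth, 71 reads in shSTIL against 12 in shNC gave a ratio of 5.74 (exact 95% interval 3.09 to 11.6, which covers counting error only). Leaving out 1 library gave ratios of 4.61 to 6.80, and the limma call was lost without shSTIL replicate 3 (adjusted p = 0.0131).

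F3 (chromosome 1, 94529225 to 94541800, minus strand), the tissue factor gene that starts blood coagulation and is also a YAP target, did not pass the test. Its log2 CPM was 2.94, 3.14 and 2.93 in shNC and 2.93, 2.77 and 2.90 in shSTIL libraries. The groups touched, and only shNC replicate 2 stood clearly above the rest. The fitted log2 fold change was -0.14 (standard error 0.112, 95% interval -0.38 to 0.11, limma adjusted p = 0.334). With 115 to 142 reads per library, the summed ratio was 0.934 (exact 95% interval 0.808 to 1.08, again for counting error only).

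Among 22 widely used YAP and TAZ target genes, 15 were higher, 1 was lower and 6 were not called, with a median log2 fold change of 0.35. The share called was 72.7%, beside 61.9% of all genes whose mean log2 CPM reached 1, as it did for 20 of the 22. The list holds 4 of the 10 members (ANKRD1, AMOTL2, LATS2 and F3). Like the other lists, it was chosen with earlier results of these data known. The matricellular protein genes CCN1 and CCN2 both rose, to 208% and 215% of the control level. CCN1 had a log2 CPM of 9.46, 9.42 and 9.44 in shNC and 10.48, 10.50 and 10.51 in shSTIL libraries (log2 fold change 1.06, limma adjusted p = 1.3e-11). CCN2, whose promoter window is printed above, had 9.47, 9.45 and 9.46 in shNC and 10.55, 10.56 and 10.58 in shSTIL (1.11, adjusted p = 8.9e-12). In both genes the libraries of a group lay within 0.04 log2 units of each other. TGFB2, a growth factor gene, rose by 1.25 (adjusted p = 2.0e-08), CRIM1, a regulator of BMP ligands, by 1.15 (adjusted p = 1.5e-11), and RBMS3, an RNA-binding protein gene, by 0.86 (adjusted p = 2.7e-07). IGFBP3, which binds insulin-like growth factors, was the 1 DEG that fell, from 2.95, 3.02 and 2.89 to 0.95, 1.45 and 1.34 log2 CPM (-1.70, limma adjusted p = 8.0e-07). The genes not called were LATS2, F3, FOXF2, CCDC80, NT5E and ARHGEF17. The summed CPM of the 22 genes was 3242 to 3290 in shNC and 5513 to 5588 in shSTIL libraries, 1.70-fold higher on average. CCN1 and CCN2 carried most of that rise, and without them the sum of the other 20 genes was 1844 to 1889 in shNC and 2552 to 2637 in shSTIL, 1.39-fold higher.

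**Figure D3:**
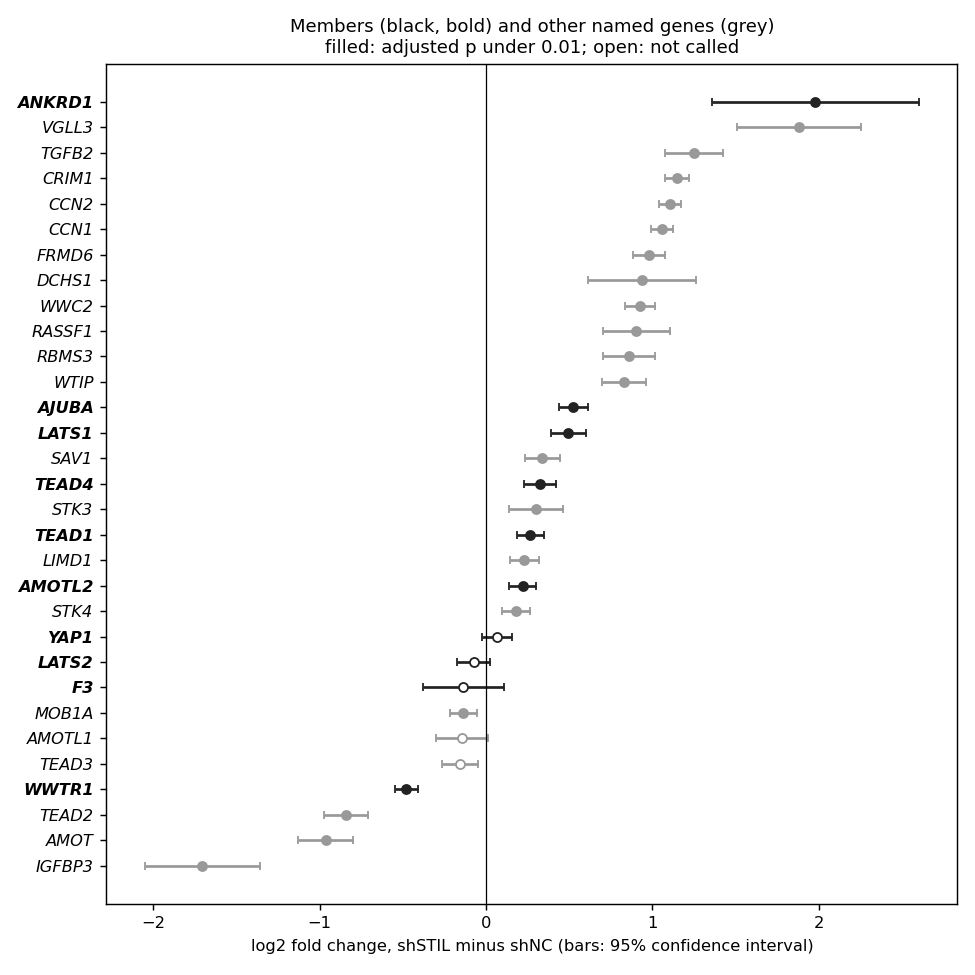
The log2 fold change of shSTIL against shNC from limma is plotted for the 10 members (bold) and the other named pathway and target genes (grey), with 95% confidence intervals; filled points are DEGs (adjusted p under 0.01). ANKRD1 has the largest and least precise change of the members, and the intervals of YAP1, LATS2 and F3 cross 0.

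**Figure D4:**
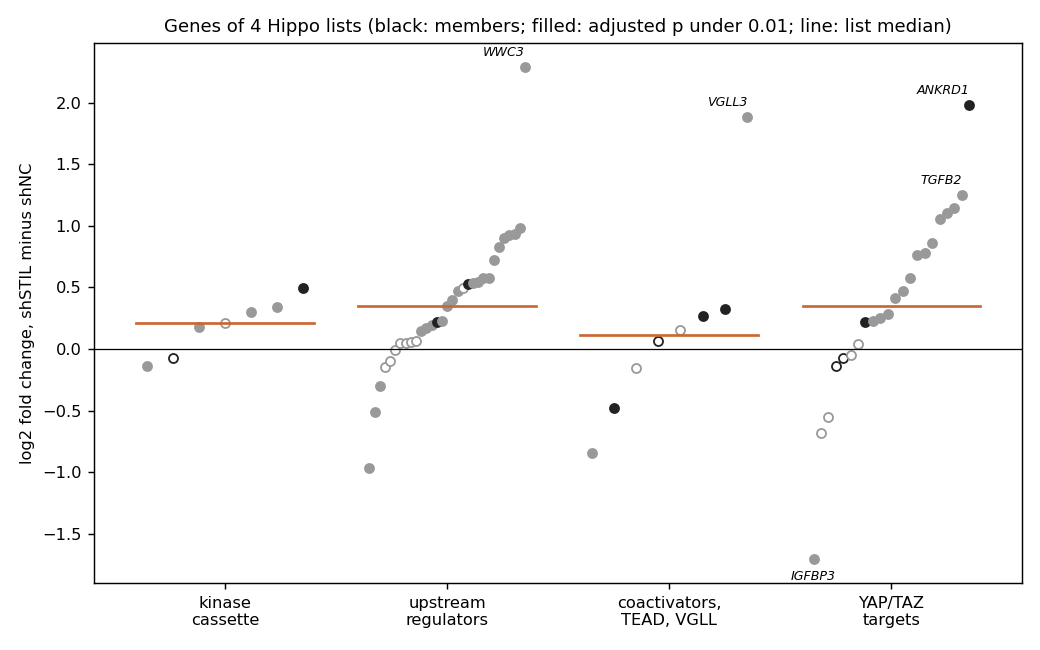
Each point is a gene of the kinase module, the upstream regulators, the coactivator, TEAD and VGLL genes, or the YAP and TAZ targets, placed by its log2 fold change (shSTIL minus shNC), with members in black, DEGs filled and the median of each list as a line. The medians are 0.21, 0.35, 0.11 and 0.35, and each list also holds genes that fell.

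To compare levels between genes, CPM was divided by the length of the longest coding transcript of each gene in GENCODE 29. In shNC cells WWTR1 was highest at 47.5 ± 1.43 CPM per kb (SD, n = 3), followed by AMOTL2 at 29.3 ± 1.26, YAP1 at 25.0 ± 1.37, TEAD1 at 23.4 ± 0.52 and TEAD4 at 22.3 ± 0.356. YAP1 and TEAD1 overlapped between libraries, and the other neighbours did not. AJUBA (11.5 ± 0.293), LATS2 (8.82 ± 0.396), LATS1 (5.93 ± 0.35), F3 (3.46 ± 0.303) and ANKRD1 (0.126 ± 0.0322) followed, with no overlap between neighbours. In shSTIL cells 2 groups of neighbours changed order by this measure. WWTR1 fell to 34.1 ± 0.17 and could no longer be told from AMOTL2 at 34.2 ± 0.686. TEAD1 (28.2 ± 1.43) and TEAD4 (27.9 ± 0.694), which overlapped, stood above YAP1 (26.2 ± 0.6). LATS1 (8.35 ± 0.189) still ranked after LATS2 (8.38 ± 0.0976), but their libraries now overlapped. AJUBA was at 16.6 ± 0.428, F3 at 3.14 ± 0.188 and ANKRD1 at 0.699 ± 0.263. The order depends on the length used: with the median transcript length of each gene, TEAD1 and YAP1 ranked above AMOTL2 in both groups, and LATS1 above LATS2. By that measure all 10 genes kept the same order in shNC and shSTIL cells, with WWTR1 first in both, so the changes of order above rest on the choice of the longest transcript.

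The counting was not stated to use strand. YAP1, WWTR1 and LATS1 overlap exons of genes on the opposite strand (for WWTR1, WWTR1-AS1), so reads from the shared bases may not be told apart. AMOTL2 and AJUBA share bases with a gene on the same strand (for AMOTL2, the pseudogene RPL39P5). How many bases are shared was not measured.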

How the data were processed

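RNA was extracted with Trizol and sequenced on a BGISEQ-500. The authors filtered reads with SOAPnuke, mapped them with Bowtie2 to a transcriptome and estimated gene abundance with RSEM, which divides reads between similar transcripts. The submitters' processing notes name hg38 and limma, and versions were not given in the sources used here. The values analysed are the log2 CPM that the authors computed with edgeR and deposited for 6 libraries (15953 genes). The deposited estimated counts cover 4 libraries (15957 genes) and were used only to check the reads recovered from log2 CPM. The largest difference from them for any gene was 0.0028 reads. By library, 88.1 to 88.5% of genes had a recovered value that was whole within 0.02. The recovered values were rounded for edgeR and DESeq2.

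All genes were fitted with limma 3.58.1 (lmFit, eBayes with a mean-variance trend, R 4.3.3) with Benjamini-Hochberg adjustment and no replicate block. The prior count of 2 in log2 CPM makes fold changes of genes with few reads too small. The scripts were tested on simulated data, where limma on all genes was conservative. Far fewer genes changed in that simulation than were called here, so it does not show how conservative the fit was on these data. A gene not called here may still have changed. Alternatives were quantile normalization, median centring, a minimum mean, another prior, another threshold, no trend, edgeR 4.0.16, DESeq2 1.42.0, a replicate block and leaving out each library. Genes named besides the members were their paralogs, CCN1, CCN2 and, in each list, up to 6 DEGs by absolute fold change whose mean log2 CPM reached 1 and whose groups stood apart, and the 3 genes nearest in profile to the member that changed most at that mean. Members and lists were chosen with earlier results of these data known. Gene coordinates are those of GENCODE 29 (GRCh38).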

Additional observations from a re-analysis of the deposited data

How the results depend on the processing

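None of the 32 genes refitted under the alternatives (the 10 genes, STIL and the named paralogs, pathway and target genes other than NF2, TAOK2 and WWC3) reversed its sign. The number of DEGs among the 10 genes stayed at 7 with quantile normalization, median centring, a prior count of 0.5, edgeR, DESeq2 and an adjusted p under 0.05. It was 6 without a mean-variance trend, where AMOTL2 missed the threshold (adjusted p = 0.0117), and 6 with a minimum mean log2 CPM of 1, which removes ANKRD1 from the table. Leaving out 1 library gave 4 to 7 DEGs among the 10 genes, 3 to 6 of them higher, and 4900 to 5638 among all genes. The lowest counts came without shSTIL replicate 3, where TEAD1, ANKRD1 and AMOTL2 lost their calls. WWTR1, TEAD4, LATS1 and AJUBA kept theirs in every fit run. With the replicate number as a replicate block there were 6898 DEGs, again 7 of them among the 10 genes. The deviations of libraries with the same number correlated at -0.12, -0.06 and -0.11, and the numbers were therefore not taken as pairs. With 3 libraries a group, the exact permutation test cannot go below 0.1. Depth limits ANKRD1 (3 to 33 reads per library) and, less so, F3.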
